A study of Mus with 6 samples.

Results

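Expression of 10 genes used as markers of cancer-associated fibroblasts was followed in RNA from mouse pancreatic tumors: Acta2, Tagln, Pdgfra, Pdgfrb, Fap, Dcn, Lum, Postn, Pdpn and Thy1. They were taken by a list of Ensembl IDs, drawn up as known fibroblast markers with earlier results of these data known; all 10 were among the 15646 genes of the count table and all 10 passed the filter on low counts, which left 14348 genes. The tumors had been grown orthotopically, that is, placed in the pancreas, from KPC1199 cells, a line of mouse pancreatic ductal adenocarcinoma. Hosts were genetically obese ob/ob mice, which lack functional leptin, or lean wild-type (WT) mice, with 3 libraries in each group. Library titles starting with OB were read as obese (numbers 1, 3 and 4), and those starting with ND as the lean group (numbers 1, 2 and 3). No label spells out ND, which was taken as lean because only ob/ob and lean WT hosts are named. The labels used here give no age, sex or weight of the mice and name no batch, and every host carried the same implanted line. Whether each library stems from a different mouse is not stated in the labels; p-values here thus rest on library-to-library spread, part of which may be technical.

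Fibroblasts in pancreatic tumors build the fibrous stroma that surrounds the cancer cells. They are commonly described as myofibroblastic cells, which carry contractile proteins such as smooth muscle actin and lay down matrix, as inflammatory cells, which secrete cytokines and carry PDGF receptor alpha, and as antigen-presenting cells. No marker of the list belongs to fibroblasts alone: smooth muscle cells and pericytes of the vessels also express Acta2, Tagln and Pdgfrb, lymphatic endothelium expresses Pdpn, and T cells and neurons express Thy1 in mice. Markers of those cells, and other fibroblast genes, were not analysed here, so the labelled tissue was not checked against other cell types. Which cells, the implanted cancer cells included, gave the RNA of each marker was not tested. That holds for Lum, Postn and Dcn too. The libraries are of bulk tissue, in which fewer cells of a type and less RNA per cell cannot be told apart.

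The libraries held 7122533 to 8521244 counts. The first principal component of log2 CPM over all genes tested (54.06% of the variance) parted the groups. Lean libraries lay at -46.0 to -25.6 on it and obese ones at 29.0 to 43.6. On the second (15.01% of the variance) obese 3 lay apart from the other 5 libraries, at -37.7 against -6.45 to 17.5. The shallowest library, lean 2, was the highest of all 6 for 9 of the 10 markers after scaling. How often lean 2 was the highest over all genes was not counted, so this may not be particular to the markers. Results are therefore also given without lean 2 and without obese 3 where these libraries matter. Levels are given below in CPM, counts scaled to library size with TMM factors, which can be compared between libraries for 1 gene but not between genes, since they are not divided by transcript length.

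The matrix genes Lum, Postn and Dcn were lower in tumors of obese hosts, and the contractile, receptor and surface markers did not pass the test. A difference between these classes of marker as such was not tested. Of the 10 markers, 3 fell and 0 rose, at an adjusted p under 0.05 (edgeR quasi-likelihood test, adjusted over all genes tested). Over all genes, 10.6% were called lower and 10.3% higher, 20.8% together. At an unadjusted p under 0.05 there were 4 markers (the same 3 and Tagln), 0 of them higher, where 36.2% of all genes passed, and DESeq2 and limma-voom also called 0 higher. Fitted log2 fold changes were below 0 for 9 of the 10 markers, as they were for 49.1% of all genes. The median over the markers was -0.42, against 0.01 over all genes. In 4 markers (Lum, Postn, Tagln and Pdgfra) every obese library lay below every lean one, and in 0 markers above. Over all genes, 20.0% were lower and 20.3% were higher without overlap. The share of all genes called in either direction varied with the library left out. It was 7.99% (1179 genes) without lean 2, 9.92% (1461 genes) without obese 1 and 10.4% (1541 genes) without lean 3. It was 13.2% (1956 genes) without obese 4, 17.8% (2624 genes) without lean 1 and 20.8% (3066 genes) without obese 3. With all 6 it was 20.8% (2991 genes). Each such fit also has fewer libraries, and whether that or the library itself moved the share was not tested.

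**Figure D1:**
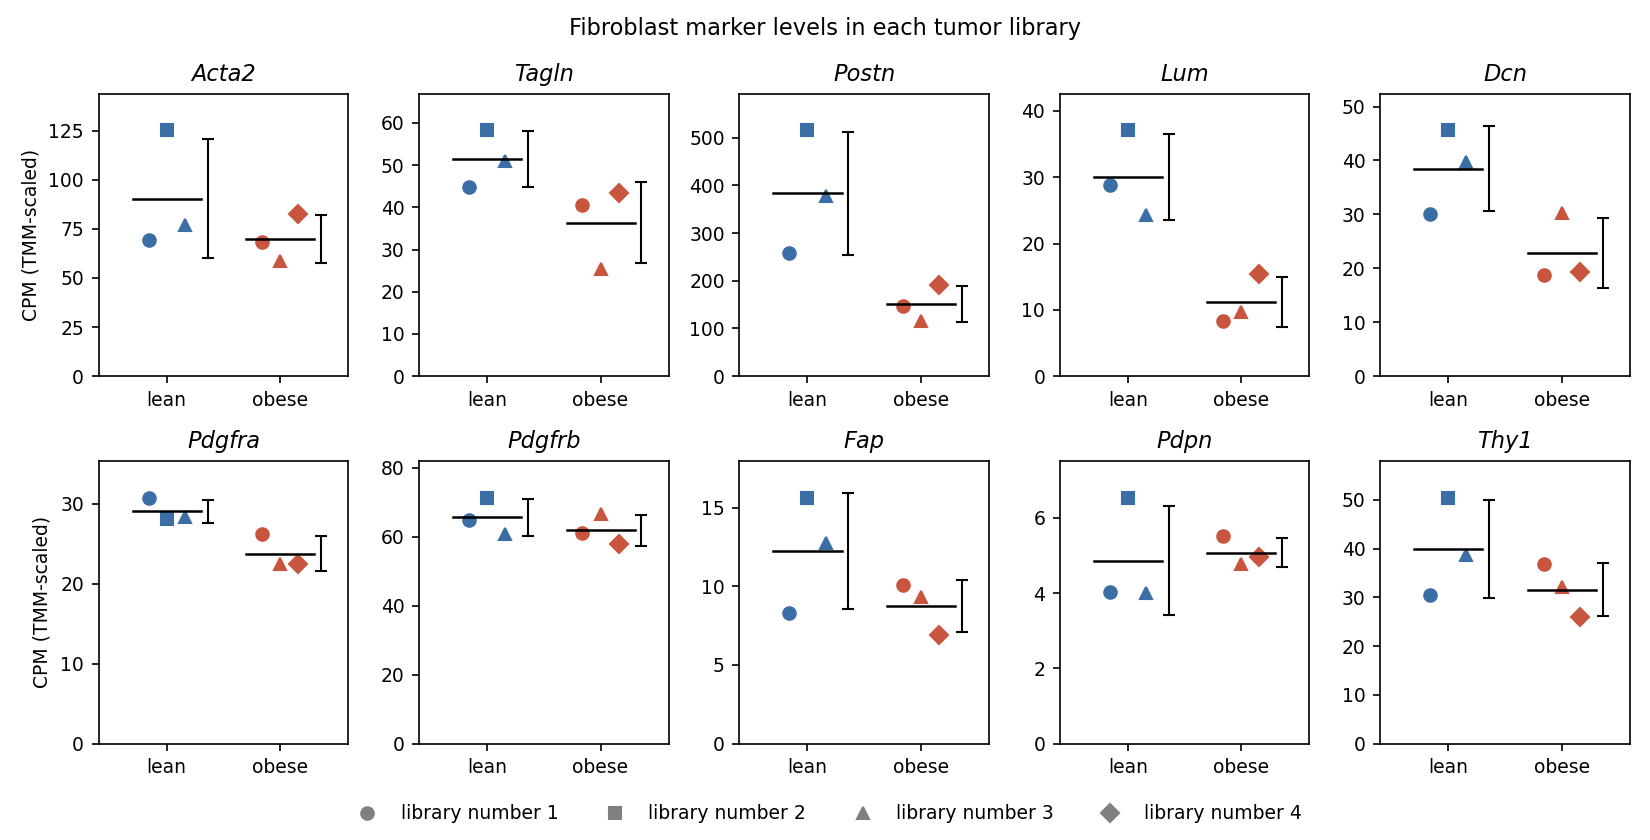
Level of each marker (vertical axis, TMM-scaled CPM, from 0) in the 3 lean and 3 obese libraries; symbols give the library number, horizontal lines the group mean and error bars the SD (n = 3). Postn, Lum, Tagln and Pdgfra have no obese library above a lean one, and the lean 2 square is the highest point for every marker except Pdgfra.

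Lum (ENSMUSG00000036446.5) encodes lumican, a small leucine-rich proteoglycan that binds collagen and helps to space its fibrils. Its level was 28.8, 37.1 and 24.3 CPM in lean 1, 2 and 3 and 8.32, 9.67 and 15.4 CPM in obese 1, 3 and 4. The groups did not overlap, and obese 4 was the highest of the obese libraries. The mean was 30.1 ± 6.48 CPM in lean and 11.1 ± 3.78 CPM in obese hosts (SD, n = 3 each). The fitted log2 fold change was -1.43 (SE 0.25, 95% interval -1.97 to -0.89; edgeR adjusted p = 0.00456), or 2.69-fold lower in obese hosts. This rested on 194 to 261 counts per lean and 71 to 128 per obese library. The call held in all 14 alternatives tried, with log2 fold changes from -1.74 to -1.25.

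Postn (ENSMUSG00000027750.16) encodes periostin, a matricellular protein secreted by activated fibroblasts. It was measured at 258, 515 and 378 CPM in lean 1, 2 and 3, against 147, 116 and 191 CPM in obese 1, 3 and 4. Lean 2 was the highest library, and the lowest lean library still exceeded the highest obese one. The mean was 384 ± 129 CPM in lean and 151 ± 37.6 CPM in obese hosts (SD, n = 3 each). The fitted log2 fold change was -1.34 (SE 0.23, 95% interval -1.86 to -0.83; edgeR adjusted p = 0.00471), or 2.54-fold lower in obese hosts. Without lean 2 the fold change was -1.07 on the log2 scale (edgeR adjusted p = 0.0245), and the call held in all 14 alternatives. With 945 to 3628 counts per library, counting alone would give a coefficient of variation of 1.84% in the lean group, where 33.6% was seen, so nearly all of that spread lay between libraries. In the RefSeq annotation a long noncoding RNA gene, Gm31095, overlaps Postn, and since the strand handling of the counts is not given in the sources used here, reads of the overlapping part cannot be assigned to 1 gene with certainty.

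Dcn (ENSMUSG00000019929.16) encodes decorin, another small leucine-rich proteoglycan, which binds collagen and sequesters TGF-beta. Its level was 30.2, 45.6 and 39.8 CPM in lean 1, 2 and 3 and 18.8, 30.3 and 19.3 CPM in obese 1, 3 and 4. The groups touched at a single point, where obese 3 was just above lean 1; the other obese libraries lay below all lean ones. The mean was 38.5 ± 7.80 CPM in lean and 22.8 ± 6.53 CPM in obese hosts (SD, n = 3 each). The fitted log2 fold change was -0.75 (SE 0.22, 95% interval -1.23 to -0.28; edgeR adjusted p = 0.0321). This was the least secure of the 3 calls. It held in 8 of 14 alternatives and was lost with total counts only (edgeR adjusted p = 0.0515), with the replicate number as a block (0.0735) and without lean 2 (0.128), obese 1 (0.105), obese 4 (0.0957) or lean 3 (0.0918). The direction was the same in all 14, with log2 fold changes from -1.01, without obese 3, to -0.53, with the replicate block.

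Dcn and Lum are neighbors on chromosome 10 of the mouse assembly GRCm38.p6, at chr10:97479500-97518163 and chr10:97565501-97572703, separated by 47337 bases that hold 0 other RefSeq genes. The 2 genes did not follow each other closely between libraries. The log2 ratio of Lum to Dcn counts within a library was -0.06, -0.30 and -0.71 in lean 1, 2 and 3 and -1.17, -1.65 and -0.32 in obese 1, 3 and 4. The groups overlapped through obese 4, so a greater fall of Lum than of Dcn was not shown (difference -0.69; exact permutation test, two-sided, p = 0.2, adjusted p = 0.36 over all 45 pairs of markers). Postn and Lum differed still less from each other: their log2 ratio was 3.64 ± 0.42 in lean and 3.78 ± 0.32 in obese libraries (SD, n = 3 each; exact permutation test, p = 0.7, adjusted p = 0.808). Postn lies elsewhere, at chr3:54359267-54391041.

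Acta2 (ENSMUSG00000035783.9) and Tagln (ENSMUSG00000032085.5), which encode smooth muscle actin and the actin-binding protein transgelin, are the contractile markers of the list. Acta2 (chr19:34240336-34255585) was at 69.2, 125 and 77.0 CPM in lean 1, 2 and 3 and at 68.4, 58.6 and 82.7 CPM in obese 1, 3 and 4. Apart from lean 2, the libraries of the groups were interleaved. The log2 fold change of Acta2 was -0.37 (SE 0.21, 95% interval -0.83 to 0.09; edgeR adjusted p = 0.226), and without lean 2 it was -0.07 (edgeR adjusted p = 0.817).

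Tagln was at 44.9, 58.2 and 51.1 CPM in lean 1, 2 and 3 and at 40.4, 25.3 and 43.3 CPM in obese 1, 3 and 4. Its groups did not overlap, but obese 1 and obese 4 lay close beneath lean 1, and only obese 3 was far below. Its log2 fold change of -0.50 (SE 0.19, 95% interval -0.92 to -0.07) had an edgeR adjusted p = 0.0879 and passed in 0 of 14 alternatives, and without obese 3 it was -0.29. The interval is not adjusted for the number of genes tested. Tagln (chr9:45929628-45936058) overlaps the protein-coding gene Pcsk7 in the RefSeq annotation, with the same limit as for Postn. The log2 ratio of Tagln to Acta2 counts was -0.77 ± 0.29 in lean and -0.97 ± 0.23 in obese libraries (SD, n = 3 each; exact permutation test, p = 0.5, adjusted p = 0.625), so no shift between these genes was detected.

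The PDGF receptors receive the growth factor signal that drives fibroblast proliferation and migration; the alpha receptor is a broad fibroblast marker and the beta receptor is shared with pericytes. Pdgfra (ENSMUSG00000029231.15, chr5:75151322-75198206) was at 30.7, 28.1 and 28.4 CPM in lean 1, 2 and 3 and at 26.3, 22.5 and 22.4 CPM in obese 1, 3 and 4. All obese libraries were below all lean ones by a small margin, and this was the single marker for which lean 2 was the lowest of the lean libraries. Its log2 fold change was -0.29 (SE 0.14, 95% interval -0.61 to 0.02; edgeR adjusted p = 0.162), between -0.37 and -0.23 in all 14 alternatives, none of which passed. The lean libraries varied by 4.95% of their mean, less than the 6.62% that counting at 198 to 259 counts would give.

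Pdgfrb (ENSMUSG00000024620.11, on chromosome 18) had the smallest standard error of the 10 markers and was at 64.9, 71.3 and 60.7 CPM in lean 1, 2 and 3 and at 61.1, 66.7 and 57.8 CPM in obese 1, 3 and 4. The libraries of the groups alternated in rank. The log2 fold change was -0.09 (SE 0.11, 95% interval -0.34 to 0.17; edgeR adjusted p = 0.624), so that changes beyond 0.79-fold or 1.12-fold lie outside the interval. With the replicate block the sign turned, at 0.02. The log2 ratio of Pdgfra to Pdgfrb counts was -1.17 ± 0.15 in lean and -1.38 ± 0.18 in obese libraries (SD, n = 3 each), and the groups overlapped (exact permutation test, p = 0.2, adjusted p = 0.36).

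**Figure D2:**
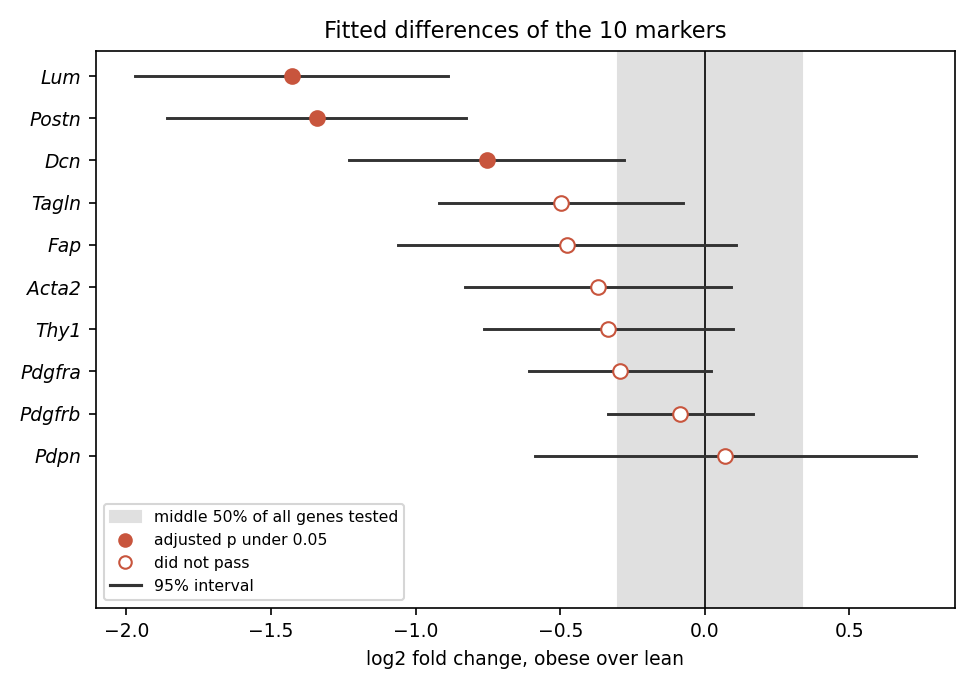
Fitted log2 fold change of each marker, obese over lean (horizontal axis), with its 95% interval (lines); filled points have an edgeR adjusted p under 0.05, and the grey band holds the middle 50% of all genes tested, from -0.30 to 0.33. Lum, Postn and Dcn are filled; Pdgfrb and Pdpn lie nearest to 0.

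The remaining markers are proteins of the cell surface. Fap encodes fibroblast activation protein, a serine protease of activated stromal cells (ENSMUSG00000000392.17, chr2:62500936-62575509). It was at 8.31, 15.6 and 12.8 CPM in lean 1, 2 and 3 and at 10.1, 9.30 and 6.88 CPM in obese 1, 3 and 4. Lean 1 fell among the obese libraries, and the log2 fold change of -0.48 (SE 0.27, 95% interval -1.06 to 0.11; edgeR adjusted p = 0.221) became -0.27 without lean 2 and -0.70 without lean 1.

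Thy1 encodes the glycoprotein CD90 (ENSMUSG00000032011.5, chr9:44043384-44048579) and was at 30.5, 50.4 and 38.8 CPM in lean 1, 2 and 3 and at 36.8, 32.1 and 25.9 CPM in obese 1, 3 and 4. Its groups overlapped through lean 1, and its log2 fold change was -0.33 (SE 0.20, 95% interval -0.76 to 0.10; edgeR adjusted p = 0.244). Without lean 2 it was -0.13.

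Pdpn encodes podoplanin, a mucin-like glycoprotein (ENSMUSG00000028583.14, chr4:143267409-143299564), and was the scarcest marker by counts, at 32 to 47 per library. Its level was 4.04, 6.53 and 4.005 CPM in lean 1, 2 and 3 and 5.51, 4.77 and 4.95 CPM in obese 1, 3 and 4. All obese libraries lay between lean 2 and the other lean ones. The log2 fold change was 0.07 (SE 0.30, 95% interval -0.59 to 0.73; edgeR adjusted p = 0.889), with a sign that turned to -0.05 without lean 1 or without lean 3. Without lean 2 it was 0.33 (edgeR adjusted p = 0.508). This interval is the widest of the 10, holding changes from 0.67-fold to 1.66-fold.

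The matrix genes are set against Pdgfrb here to show the libraries on a scale that does not depend on how they are normalized. Pdgfrb was chosen as reference after its values were seen, for a fold change near 0, so these ratios restate the fold changes above and are no further support for them. The log2 ratio of Lum to Pdgfrb counts was -1.17, -0.94 and -1.32 in lean 1, 2 and 3 and -2.88, -2.79 and -1.90 in obese 1, 3 and 4. For Postn to Pdgfrb it was 1.99, 2.85 and 2.64 in the lean libraries and 1.27, 0.79 and 1.72 in the obese ones, in the same order. For Dcn to Pdgfrb it was -1.11, -0.65 and -0.61 in the lean libraries and -1.70, -1.14 and -1.58 in the obese ones. In each of these the groups did not overlap, although lean 1 and obese 3 almost met for Dcn. The differences in mean log2 ratio, obese minus lean, were -1.38 for Lum, -1.23 for Postn and -0.69 for Dcn (exact permutation test, p = 0.1 each, the smallest that 3 against 3 libraries allow; adjusted p = 0.25 over 45 pairs), and -1.28, -1.05 and -0.62 without lean 2. The ratios of the other 6 markers to Pdgfrb overlapped between groups, with differences from -0.44 for Tagln to 0.19 for Pdpn. Of all 45 pairs of markers, 18 had ratios that did not overlap between groups (40.0%), among them 6 of the 9 pairs with Lum, 6 of the 9 with Postn, 7 of the 9 with Pdpn and 2 of the 9 with Dcn. Pairs share markers, and no such share was taken over pairs of other genes, so these counts describe the list only. Levels of single genes, an unlike measure, did not overlap in 20.0% (lower) and 20.3% (higher) of all genes. The 40.0% of pairs counts both directions, so it is not to be set against either of these shares alone. Dcn was apart relative to Pdgfrb and Pdpn, and its ratios to Fap, Tagln, Acta2, Thy1 and Pdgfra overlapped between groups. None passed the exact permutation test, which cannot go below 0.1 with 3 against 3 libraries.

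**Figure D3:**
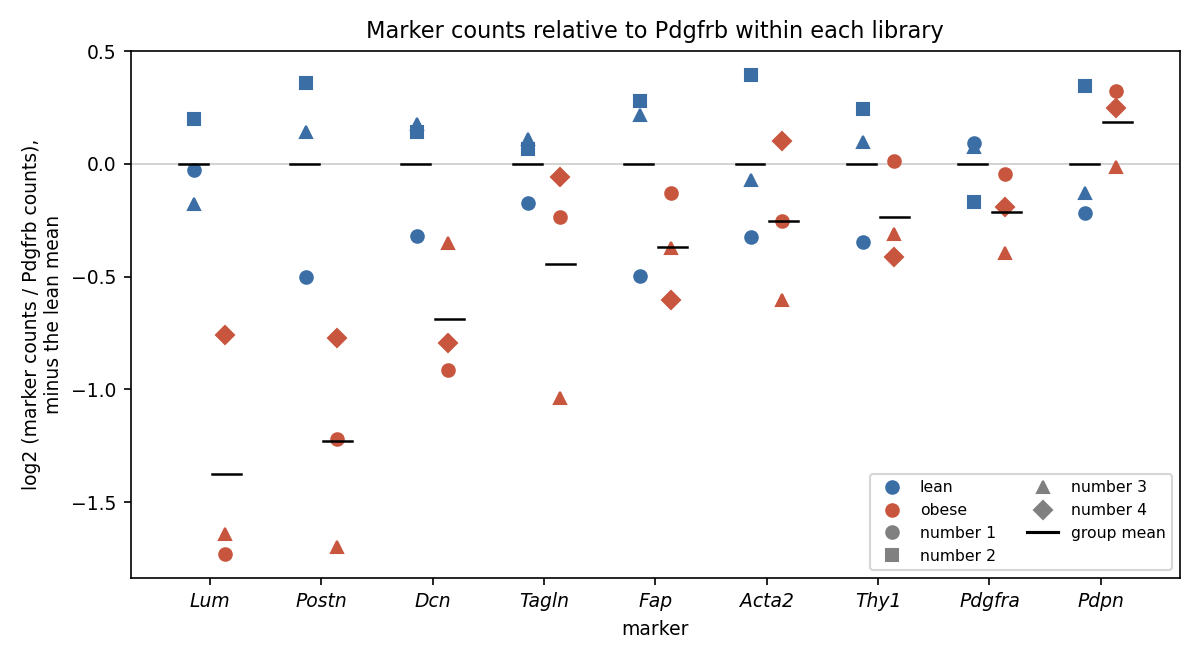
Log2 ratio of the counts of each marker to those of Pdgfrb in the same library, with the lean mean of that marker set to 0 (vertical axis); colors give the group, symbols the library number and lines the group means. Lum, Postn and Dcn have no obese library above a lean one, and the groups overlap for the other 6 markers.

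Postn made up much of the counts of the list, a share that also depends on transcript length. Postn took 45.3%, 54.1% and 52.9% of the counts over the 10 markers in lean 1, 2 and 3 and 34.9%, 30.8% and 40.6% in obese 1, 3 and 4. The summed level of the 10 markers was 746 ± 194 CPM in lean and 422 ± 47.2 CPM in obese libraries (SD, n = 3 each), 43.3% lower, or 34.2% lower without lean 2. Summed without Postn it was 362 ± 66.9 against 271 ± 10.5 CPM, 25.1% lower, or 16.3% lower when lean 2 was left out. Over the 7 markers that did not pass the test the sum was 294 ± 54.4 against 237 ± 15.8 CPM, 19.2% lower, or 9.67% lower without lean 2. The difference between groups in the summed level thus lay mainly in Postn, and its size depended on lean 2 both with and without Postn. These sums are descriptions of trimmed lists and were not tested.

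The libraries also differed in which markers were low. Among the obese libraries, obese 3 had the highest Dcn and Pdgfrb but the lowest Postn, Acta2, Tagln and Pdpn. Obese 1 had the lowest Lum and Dcn, and obese 4 the highest Lum, Postn, Acta2 and Tagln with the lowest Pdgfra, Pdgfrb, Fap and Thy1. Among the lean libraries, lean 2 exceeded its group mean in 9 of 10 markers, lean 3 in 2 and lean 1 in 1. Such counts were not taken over all genes. The biological coefficient of variation fitted by edgeR ranged from 11.1% for Pdgfrb to 21.9% for Fap, with 20.7% for Lum, 20.4% for Postn and 18.9% for Dcn.

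**Figure D4:**
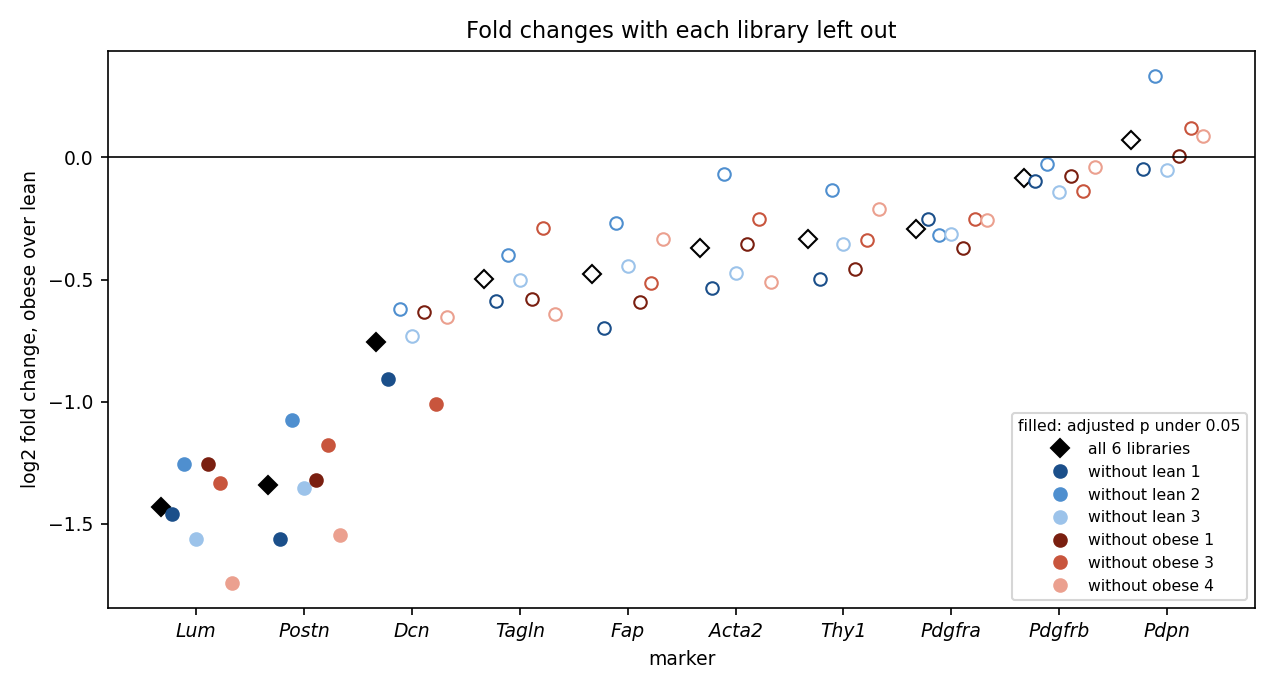
Log2 fold change of each marker, obese over lean (vertical axis), with all 6 libraries (diamonds) and with each library left out (circles); filled symbols have an edgeR adjusted p under 0.05. Lum and Postn are filled throughout, and Dcn is filled with all libraries and without lean 1 or obese 3. The open symbols of Acta2, Fap and Thy1 shift most when lean 2 or lean 1 is left out, and those of Pdpn when lean 2 is left out.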

How the data were processed

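RNA of tumor tissue was sequenced in 6 libraries after ribosomal RNA depletion, per the labels' protocols. The authors deposited these as raw gene counts in 1 table. CASAVA, STAR, Subread and the build GRCm38 are named in the submitters' processing notes; for versions, settings and strand, nothing is given in the sources used here. Markers were matched by Ensembl ID. Positions came from a RefSeq table of GRCm38.p6, matched by symbol for 10 of 10; 0 of its 49997 rows carry an Ensembl ID, so 20 further gene lists could not be looked up and were not used. Markers and lists were chosen with earlier results of these data known. All 10 markers are named, whatever their values.

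The analysis used R 4.3.3 and edgeR 4.0.16: expression filter (minimum count 10, minimum total 15), TMM factors and the two-sided quasi-likelihood F test with no covariates, with Benjamini-Hochberg adjustment over 14348 genes. The SE is the log2 fold change divided by the square root of F. Principal components used a prior count of 2. Single ratios were compared by exact permutation. The 14 alternatives were other factors (RLE, upper-quartile, none), other filters, DESeq2 1.42.0, limma-voom (limma 3.58.1), a replicate block and leaving out each library. In the replicate block, lean 2 and obese 4 do not bear on the group difference. The edgeR, DESeq2 and limma-voom tests were also run on simulated counts with known changes, in a smaller share of genes than was called here. The permutation test was not, and the outcome is not given here. In a library, 3 counts correspond to 0.352 to 0.421 CPM; this floor covers counting error only.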

Additional observations from a re-analysis of the deposited data

How the results depend on the processing

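The number of markers called lower was 3 with RLE or upper-quartile factors, without a filter, with a filter on CPM (1 or more in 3 or more libraries), with DESeq2 and with limma-voom. It was 2 with total counts only and with the replicate block, and 2 to 3 when 1 library was left out, Dcn being the marker lost each time. In all 14 alternatives 0 markers were called higher. Over all genes, leaving out 1 library gave 1179 to 3066 calls, and the cause was not tested. With the replicate block Pdgfrb turned from -0.09 to 0.0235, Thy1 moved from -0.33 to -0.0022, Fap from -0.48 to -0.09, Acta2 from -0.37 to -0.20 and Pdpn from 0.07 to 0.35. Pdpn ranged from -0.0508 to 0.333 when 1 library was left out; none of these was called in any alternative. With the replicate block 2087 genes were called, Lum and Postn among them. The numbers of lean 2 and obese 4 each occur in 1 group only, so these libraries did not bear on the group difference of that fit. Shifts due to pairing and shifts due to the loss of lean 2 and obese 4 cannot be told apart in it. Only numbers 1 and 3 occur in both groups, and the deviations of those pairs correlated at 0.090 and 0.074, the highest of the 9 lean and obese pairs (the others ranged from -0.131 to 0.066). Neither exceeded 0.1 and no label ties like numbers, so whether a number pairs libraries cannot be told. The median over all genes of the log2 fold change was 0.01 with TMM factors and 0.07 with total counts only. Pdpn had 32 to 47 counts per library, for which counting alone gives a coefficient of variation of 16.4% in lean and 15.4% in obese libraries, beside a fitted biological one of 21.8%.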
